A study of Gallus gallus with 7 samples.

Results

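A group of 133 genes had lower RNA in chick limb buds injected with miR-455-3p mimic than in limb buds injected with control mimic, out of 17190 Ensembl chicken genes in the deposited files. The members were chosen by their own values. A gene entered if its control mimic libraries averaged at least 50 normalized counts, if its mean log2(value + 0.5) was lower on miR-455-3p mimic by 1.5-fold or more (a fold of 0.667 or less), and if its highest mimic value lay under its lowest control value. All folds and log2 differences are on this log2(value + 0.5) scale. Of the 11774 genes with a control mean of 50 or more, 133 met the other conditions, which is 1.13% of them. The size of the fall and the separation of the groups are therefore a description of the choice and carry no test.

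A microRNA is loaded into a protein complex, which it guides to messenger RNAs that pair with the seed at its 5′ end. Pairing usually shortens the life of the message and lowers its translation, so that targets of an added microRNA tend to lose RNA, while many other genes can move as a consequence. miR-455 lies in an intron of COL27A1, a collagen gene of cartilage, and is known for its expression in developing cartilage. The limb bud at these stages is a mass of mesenchyme under a thin ectoderm, in which the first cartilage condensations form and into which muscle precursors and vessels grow.

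RNA was measured in 3 libraries from wild-type limb buds injected with miR-455-3p mimic (mimic 1 to 3), a synthetic RNA that supplies the mature microRNA, and in 4 libraries from wild-type limb buds injected with control mimic (control 1 to 4). The series record places the injection at stage 18 to 19 of Hamburger and Hamilton and the harvest 24 hours later at stage 24 to 25, while the study's own notes give a later stage of injection. The sources do not state if the libraries stem from different embryos, and p-values therefore measure only the spread between these libraries, which may be technical. Whole limb buds were homogenized, and fewer cells of a type cannot be told apart from less RNA per cell. The identifiers of the files were not paired with gene names in any source used here (0 of 17190 matched), so the genes are described by their rank, 2 identifiers are printed, and the labelled tissue was not checked against marker genes.

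The libraries held an estimated 17679101 to 19797578 reads on miR-455-3p mimic and 14879929 to 21363143 on control mimic, and 1 read was worth 0.843 to 1.22 normalized counts. Control 3 had the fewest reads. A set of 22 genes at 50 or more normalized counts in mimic 3, control 3 and control 4 stood at 5 or less in mimic 1, mimic 2, control 1 and control 2, and this parts the libraries into those numbered 1 and 2 and those numbered 3 and 4. The rule keeps all of these 22 genes out of the group, since mimic 3 lies above control 1 and control 2 in each. The values within each kind of library are given beside the pooled ones.

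The falling genes were mostly of low to middle abundance. Their mean in control mimic ran from 50.4 to 6303 normalized counts with a median of 184, against a median of 676 for all 11774 genes with a control mean of 50 or more. On miR-455-3p mimic their means ran from 16.3 to 4204 with a median of 107. By level, 39 members had a control mean of 50 to 100, which is 3.94% of the 991 genes in that class. A further 78 members lay at 100 to 1000 (1.22% of 6402 genes), and 16 lay at 1000 or more (0.365% of 4381 genes). The share taken by the rule was thus higher among scarce genes, whose values are also less precise. The median coefficient of variation between control libraries was 21.985% for all genes at 50 to 100 and 7.09% at 1000 or more.

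Summed over the 133 genes, the RNA came to 40923 to 42330 normalized counts in the mimic libraries and 63620 to 77981 in the control libraries. This was 0.223% to 0.236% of all normalized counts on miR-455-3p mimic and 0.353% to 0.431% on control mimic. The mean sum on the mimic was 0.605 of that on control. The median member stood at 120, 111 and 106 normalized counts in mimic 1 to 3, and at 164, 185, 200 and 166 in control 1 to 4. Control 3 was the highest of the control libraries both in the sum and in the median.

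**Figure D1:**
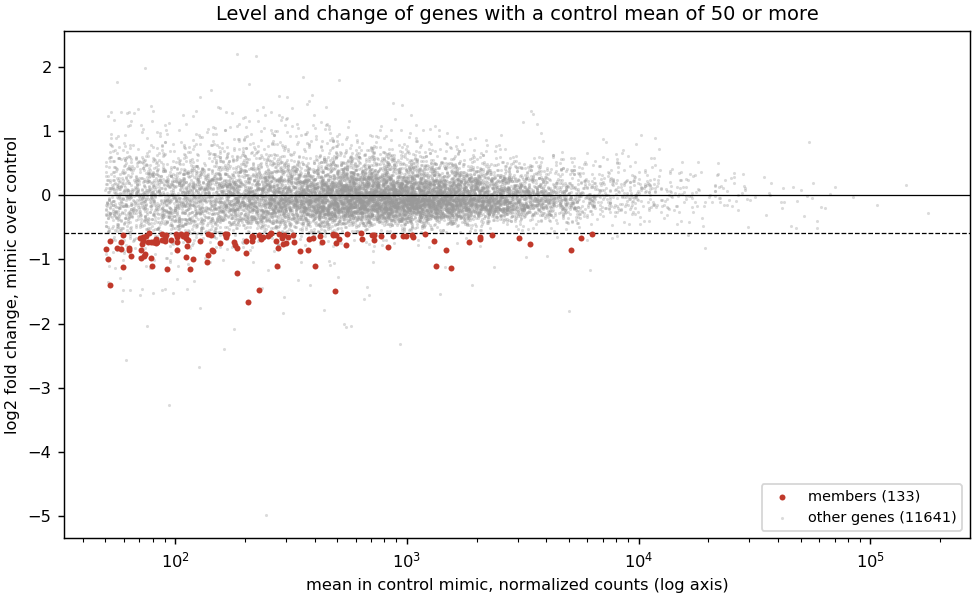
Each point is a gene with a control mean of 50 or more normalized counts. The horizontal axis is that mean on a log scale and the vertical axis is the log2 fold change of miR-455-3p mimic over control mimic, with the 133 falling genes in red, the other 11641 in grey and the bound of a 1.5-fold fall dashed; the red points thin out at high levels, with 16 at 1000 or more.

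Most members lay close to the bound. Their log2 fold change had a median of -0.71 (quartiles -0.84 and -0.64), a fold of 0.612, with a range of -1.66 to -0.59. In 87 members the fall was smaller than 0.75 on the log2 scale. Only 14 members fell to a fold of 0.5 or less, 4 of them at a control mean of 50 to 100, 8 at 100 to 1000 and 2 at 1000 or more. Over all genes with a control mean of 50 or more, the median log2 fold change was -0.03 (quartiles -0.20 and 0.18). The median change of the members was almost the same in the 3 level classes, at -0.73, -0.68 and -0.68 from the lowest class to the highest. The same bound on the fall applied in every class and favored such similar medians, so nothing is read from them.

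The bounds cut through a continuous range of values. The members nearest to the bound on the fall had folds of 0.6662, 0.6654 and 0.6618, and the genes just outside it, with no overlap between the groups, had folds of 0.6668, 0.6676 and 0.6677. The members nearest to the bound on the level had control means of 50.4, 51.2 and 52.3 normalized counts, and the genes just outside had 49.0, 48.5 and 46.7. The lowest control value was 1.002, 1.003 and 1.008 times the highest mimic value in the members with the narrowest gap, and 0.9997, 0.992 and 0.980 times in the nearest genes left out for overlap. Among the 11774 genes, 190 fell 1.5-fold or more with overlap between the groups, and 1747 had no overlap but a smaller fall, with a median of -0.28.

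The largest fall, a mean log2 fold change of -1.66 (limma standard error 0.75), was that of ENSGALG00000000818. Its values were 23.3, 51.1 and 51.0 normalized counts in mimic 1 to 3, against 63.6, 59.1, 588 and 110.5 in control 1 to 4. The value in control 3 lay far above all others, and the lowest control value was 1.16 times the highest mimic value. Without control 3 the log2 fold change was -0.91. The first place of this gene in the ranking thus rested on 1 control library.

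The second largest fall was more even. ENSGALG00000036390 had 146, 146 and 236 normalized counts in mimic 1 to 3, against 436, 453, 559 and 503 in control 1 to 4. The lowest control value was 1.85 times the highest mimic value, the widest gap among the members. The log2 fold change was -1.50 (limma standard error 0.18) and -1.43 without control 3. It was -1.60 in libraries 1 and 2 and -1.17 in libraries 3 and 4.

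The gene of rank 3 stood at 120, 44.8 and 92.1 normalized counts in mimic 1 to 3, against 333, 243, 178 and 167 in control 1 to 4. Both the mimic values and the control values differed widely among themselves, with mimic 2 the lowest and control 1 the highest. The log2 fold change was -1.48 (limma standard error 0.36). A scarce gene, of rank 4, stood at 19.3, 20.5 and 9.18 normalized counts in mimic 1 to 3, against 25.8, 37.7, 121 and 25.3 in control 1 to 4. Here control 3 again stood above the rest, and without it the log2 fold change was -0.90 in place of -1.41. For the gene of rank 5 the values were 143, 62.2 and 54.5 normalized counts in mimic 1 to 3, against 192, 205, 186 and 154 in control 1 to 4. Its control values were close together, while mimic 1 reached nearly to the lowest of them.

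The other genes among the 10 largest falls had log2 fold changes of -1.16 to -1.11. At rank 6 there were 50.1, 30.1 and 42.2 normalized counts in mimic 1 to 3, against 61.8, 93.2, 97.2 and 115 in control 1 to 4, with control 1 nearest to the mimic libraries. The gene of rank 7 had 63.8, 56.0 and 38.3 normalized counts in mimic 1 to 3, against 114, 111, 136 and 102 in control 1 to 4, with a clear space between the groups. The most abundant of these genes, of rank 8, had 927, 668 and 548 normalized counts in mimic 1 to 3, against 1683, 1615, 1625 and 1251 in control 1 to 4. Every control library was at least 1.35 times the highest mimic library, and the limma standard error of the log2 fold change of -1.14 was 0.17.

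At rank 9 the values were 28.5, 22.7 and 27.7 normalized counts in mimic 1 to 3, against 54.2, 48.2, 88.3 and 47.3 in control 1 to 4. The mimic libraries lay close together and control 3 lay above the other controls. The gene of rank 10 stood at 78.4, 123 and 209.5 normalized counts in mimic 1 to 3, against 265, 268, 310.5 and 252 in control 1 to 4. Its fall was deep in mimic 1 and shallow in mimic 3, although the control libraries lay close together. The genes of ranks 11 to 20 had log2 fold changes of -1.10 to -0.94 at control means of 51.2 to 1330 normalized counts. The most abundant of them, of rank 13, had 352, 852 and 756 normalized counts in mimic 1 to 3, against 1723, 1151.5, 1397.5 and 1046 in control 1 to 4, so that the pair with the number 1 was farthest apart.

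**Figure D2:**
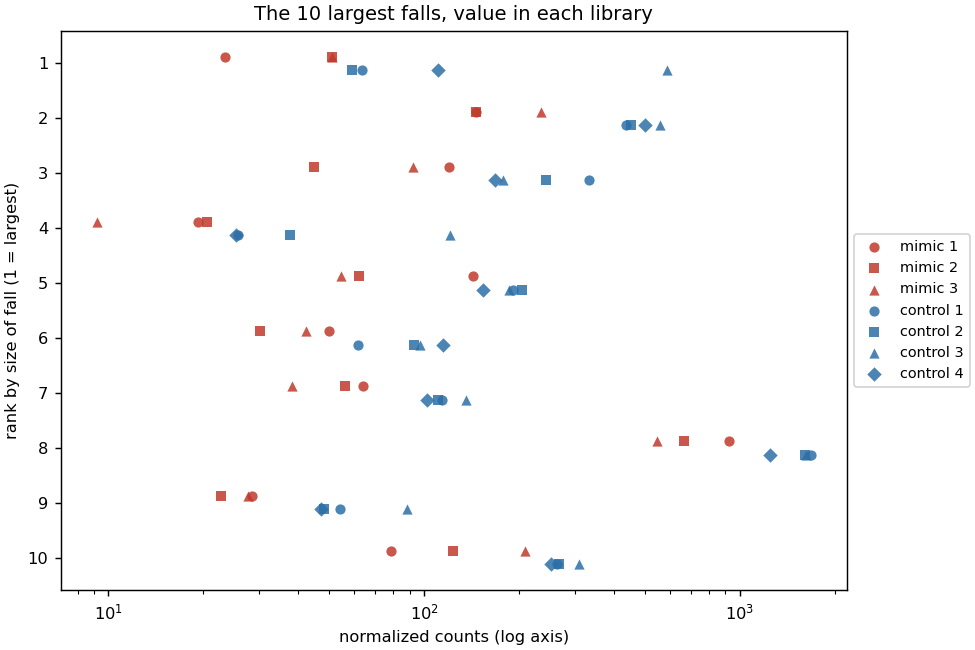
Normalized counts on a log axis of the 10 genes with the largest fall, 1 row per gene by rank, with the miR-455-3p mimic libraries in red above the control mimic libraries in blue. Within each row all red points lie left of all blue points, as the rule requires, and control 3 (blue triangle) stands far to the right at ranks 1 and 4.

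In 6 members the lowest control value was 1.5 times the highest mimic value or more, and these had ranks 2, 7, 9, 11, 18 and 37. The gene of rank 11 was the most even of them, with 202, 170 and 186 normalized counts in mimic 1 to 3, against 394, 403, 440 and 364 in control 1 to 4. Its log2 fold change was -1.10 (limma standard error 0.11), with -1.10 in libraries 1 and 2 and -1.11 in libraries 3 and 4. The gene of rank 18 was scarcer, with 40.6, 38.1 and 29.8 normalized counts in mimic 1 to 3, against 67.5, 75.4, 71.8 and 70.2 in control 1 to 4, and its control values varied little. At rank 37 there were 106.5, 91.1 and 114 normalized counts in mimic 1 to 3, against 172, 185, 173 and 207 in control 1 to 4, a log2 fold change of -0.82. At the other end, the gap was under 1.1 times in 38 members, and the median gap was 1.20 times.

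The 5 members with the highest control means held 34.3% of the summed control mean of the group, and their log2 fold changes were -0.85 to -0.60. The first of them, of rank 122 by fall, had 3280.2, 4899 and 4433 normalized counts in mimic 1 to 3, against 6406, 6342, 6682 and 5782 in control 1 to 4. It lay near the bound on the fall at -0.60, and mimic 1 was the lowest library. The next, of rank 84, had 3514, 3382 and 3724 normalized counts in mimic 1 to 3, against 5139, 5860.4, 6541 and 5101 in control 1 to 4. Its log2 difference was -0.67 in libraries 1 and 2 and -0.63 in libraries 3 and 4.

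The gene with the third highest control mean, of rank 28 by fall, had 2764, 2756 and 2656 normalized counts in mimic 1 to 3, against 4004, 4390.2, 7549 and 4435 in control 1 to 4. Its mimic values were almost equal, and control 3 lay far above the other controls. The log2 fold change was -0.85 with control 3 and -0.65 without it. After it came the gene of rank 46, with 2273, 1799 and 1969 normalized counts in mimic 1 to 3, against 3005, 3738.5, 3845 and 3053 in control 1 to 4, which fell to a similar degree in libraries 1 and 2 (-0.73) and in libraries 3 and 4 (-0.80). The last, of rank 87, had 1692, 2061 and 1912 normalized counts in mimic 1 to 3, against 2689.9, 2471, 4191 and 2799 in control 1 to 4. Control 3 was again the highest, and without it the log2 fold change was -0.49 in place of -0.66.

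The median fall was of similar size in each mimic library. Against the mean of the control libraries, the median log2 difference over the members was -0.68 in mimic 1, -0.72 in mimic 2 and -0.75 in mimic 3, while over all 11774 genes it was -0.02 in each of the mimic libraries. The fall reached 1.5-fold in 88 members in mimic 1, in 105 in mimic 2 and in 101 in mimic 3. It reached 1.5-fold in all mimic libraries in 50 members, in 2 of them in 61 members and in only 1 in 22 members. Mimic 3 was the lowest of the mimic libraries in 59 members, mimic 2 in 42 and mimic 1 in 32. For these counts the shares over all 11774 genes were not taken, so nothing is read from them. The distance between the highest and the lowest mimic library had a median of 0.44 on the log2 scale and reached 1.41, and the log2 differences of single mimic libraries ran from -2.40 to -0.08. The choice of genes fixed the direction in every mimic library and so favored agreement between them.

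**Figure D3:**
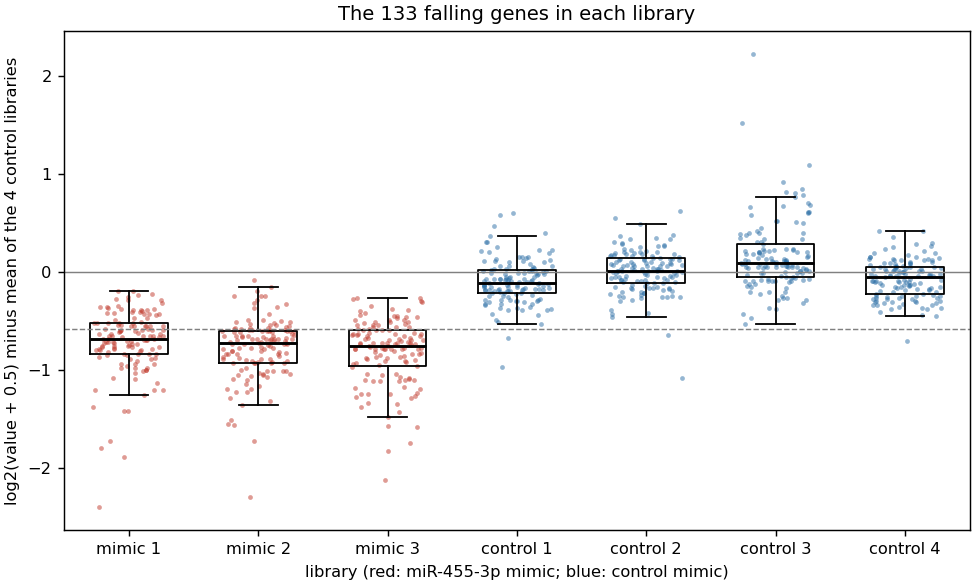
Each point is one of the 133 falling genes in one library, as log2(value + 0.5) minus the mean of the 4 control libraries, with miR-455-3p mimic libraries in red and control mimic libraries in blue; boxes give quartiles and median, whiskers reach the last point within 1.5 box lengths, and the dashed line is a 1.5-fold fall. The medians of the mimic libraries are -0.68, -0.72 and -0.75, and the highest points of the control libraries are in control 3.

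Control 3 was high in a part of the group. It was the highest control library in 58 members (43.6%) and in 29.6% of the 11774 genes. It was the lowest in 19 members (14.3%) and in 33.3% of those genes. In 22 members (16.5%) control 3 lay 1.5-fold or more above the log2 mean of the other control libraries, against 6.51% of the 11774 genes. In these 22 members the median log2 fold change was -0.80 with all libraries and -0.54 without control 3, and 10 of them still fell 1.5-fold or more. In the other 111 members it was -0.70 and -0.67, and 95 still did. A high control value adds to the fall on which the genes were chosen, so these shares are a description. The part of read depth, lowest in control 3, was not tested.

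Membership itself depended on single libraries. Of the 133 genes, 58 met the rule with any 1 library left out, 36 failed it without 1 particular library and 39 without at least 2. The largest loss was 32 members, without control 3. Without mimic 2 and without mimic 3 it was 25 each, without mimic 1 it was 19, without control 2 it was 15, and without control 1 or control 4 it was 8 each. The rule applied without control 3 took 143 genes, of which 101 were among the 133. It took 210 without control 1, 194 without control 2 and 181 without control 4. Without mimic 1 it took 259, without mimic 2 163 and without mimic 3 223. These larger counts follow in part from fewer libraries to overlap. The 58 genes that met the rule throughout had a median log2 fold change of -0.83.

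The rule, which keeps every mimic value under every control value, fixed a fall in both kinds of library, and only its size is described. In mimic 1 and 2 against control 1 and 2 the members had a median log2 difference of -0.66 (quartiles -0.81 and -0.54, range -1.95 to -0.29). In mimic 3 against control 3 and 4 it was -0.81 (quartiles -1.03 and -0.63, range -2.53 to -0.23). With control 4 as the only control, mimic 3 stood at a median of -0.74, and all 133 members were lower, as the rule requires. A fall of 1.5-fold or more was found in both kinds in 62 members, only in libraries 1 and 2 in 26 and only in libraries 3 and 4 in 45. The fall was larger in libraries 3 and 4 in 85 members, and in 73 when control 3 was left out. Changes of 1.5-fold or more were also more common over all genes in libraries 3 and 4, with 1 mimic library. There 4.91% of 11687 genes that passed the bound on the level fell and 6.23% rose by as much. In libraries 1 and 2 it was 2.27% and 4.82% of 11837 genes. The difference between the 2 falls was within 0.25 on the log2 scale in 54 members and over 0.5 in 36, with the larger fall in libraries 3 and 4 in 25 of them.

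The 5 members that differed most between the kinds had ranks 1, 4, 12, 19 and 42, and all fell further in libraries 3 and 4. That of rank 12 had 42.0, 51.3 and 21.6 normalized counts in mimic 1 to 3, against 59.9, 72.8, 81.0 and 105 in control 1 to 4. Its log2 difference was -0.50 in libraries 1 and 2 and -2.07 in libraries 3 and 4, with mimic 3 the lowest and control 4 the highest of all libraries. At rank 19 there were 51.7, 73.4 and 40.0 normalized counts in mimic 1 to 3, against 84.6, 92.6, 188 and 81.2 in control 1 to 4. Control 3 stood apart, and the log2 difference was -0.52 in libraries 1 and 2 and -1.62 in libraries 3 and 4. The gene of rank 42 had 128, 108 and 71.4 normalized counts in mimic 1 to 3, against 132, 157, 299.5 and 135 in control 1 to 4. Its log2 difference was -0.29 in libraries 1 and 2 and -1.49 in libraries 3 and 4, and -0.91 for mimic 3 against control 4 alone.

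Whether the effect of the mimic differed between the kinds of library was tested with an interaction term in limma over 14503 genes. At an adjusted p under 0.05 it passed in 5 of these genes, which is 0.0345%, and in 0 of the 133 members. At an unadjusted p under 0.05, 5 members and 353 of all genes (2.43%) passed. With the mean-variance trend left out of limma, 0 of all 14503 genes passed at an adjusted p under 0.05, and so 0 members. In that limma fit 8 members and 528 of all genes passed at an unadjusted p under 0.05. The median standard error of the difference in the members was 0.40 on the log2 scale, with 1 mimic library on 1 side. The rule, which keeps every mimic value under every control value, also limits how far the falls of a member can differ, and a test of this size does not show that they were alike.

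**Figure D4:**
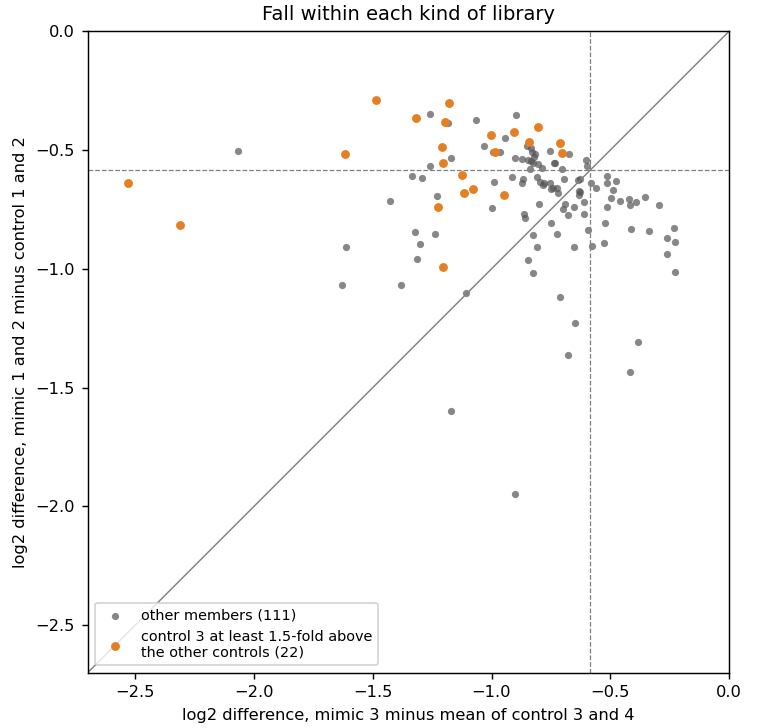
Each point is one of the 133 falling genes. The horizontal axis is the log2 difference of mimic 3 minus the mean of control 3 and 4. The vertical axis is that of mimic 1 and 2 minus control 1 and 2. Dashed lines mark a 1.5-fold fall and the diagonal equal falls. Orange points are the 22 genes with control 3 at least 1.5-fold above the other controls. All 22 lie on the side of the larger fall in libraries 3 and 4. Their choice favors that side, since control 3 enters the horizontal axis.

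The levels in libraries 3 and 4 were also set against those in libraries 1 and 2 at equal treatment. The same values chose the members, and the lack of overlap between the treatments limits how far they can differ between kinds of library, so nothing is read from their counts. In limma, 62 of the 14503 genes tested were higher in libraries 3 and 4 (0.427%) and 274 were lower (1.89%) at an adjusted p under 0.05. Of the 133 members, 0 were higher and 0 lower, and the smallest adjusted p among them was 0.168. At an unadjusted p under 0.05, 3 members were higher and 6 lower, out of 1470 of all genes (10.1%). The median log2 difference was 0.02 in the members and 0.01 over all genes tested.

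For the contrast that chose them, 72 of the 133 members also had an adjusted p under 0.05 from limma, where 826 of all 14503 genes tested were lower on the mimic (5.7%). Nothing is read from this share, since the same values chose the members. With the replicate number as a block 44 members and 365 of all genes were lower at that level. Control 4 has no mimic library of its number, so it added nothing to the estimated fall in that fit. Without mimic 2 it was 34 members and 264 of all genes, and without mimic 3 it was 34 and 311. Without control 2 it was 37 members and 412 of all genes, so that the counts over all genes shrank as well. With the kind of library as a covariate it was 79 members and 916 of all genes. Of the 10 largest falls, those of rank 1 and rank 4 did not pass, with standard errors of 0.75 and 0.58, and control 3 was the highest library in both.

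The same measure can be taken in libraries that played no part in a choice. When the rule was applied to mimic 1 and 2 against control 1 and 2 alone it took 236 genes, of which 84 were among the 133. In mimic 3 against control 3 and 4, 190 of the 236 (80.5%) were lower, with a median log2 difference of -0.39 (quartiles -0.72 and -0.09). Over the 11687 genes at that level 53.0% were lower, with a median of -0.02. A fall of 1.5-fold or more was repeated in 85 of the 236 (36.0%), against 4.91% of all genes at that level, and 17 of the 236 (7.20%) rose by as much, against 6.23%.

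The other way round gave a similar picture. Applied to mimic 3 against control 3 and 4, the rule took 591 genes, of which 105 were among the 133. In mimic 1 and 2 against control 1 and 2, 466 of the 591 (78.8%) were lower, with a median of -0.27, against 53.2% of 11837 genes with a median of -0.02. A fall of 1.5-fold or more was repeated in 101 of them (17.1%), against 2.27%, and 23 (3.89%) rose by as much, against 4.82%. The fall in the libraries not used was smaller than in those used for the choice, at -0.39 against -0.72 for the 236 genes and at -0.27 against -0.79 for the 591. The medians of the 133 genes come from the libraries that chose them. Genes within a library are not independent of each other, and no p is given for these shares.

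**Figure D5:**
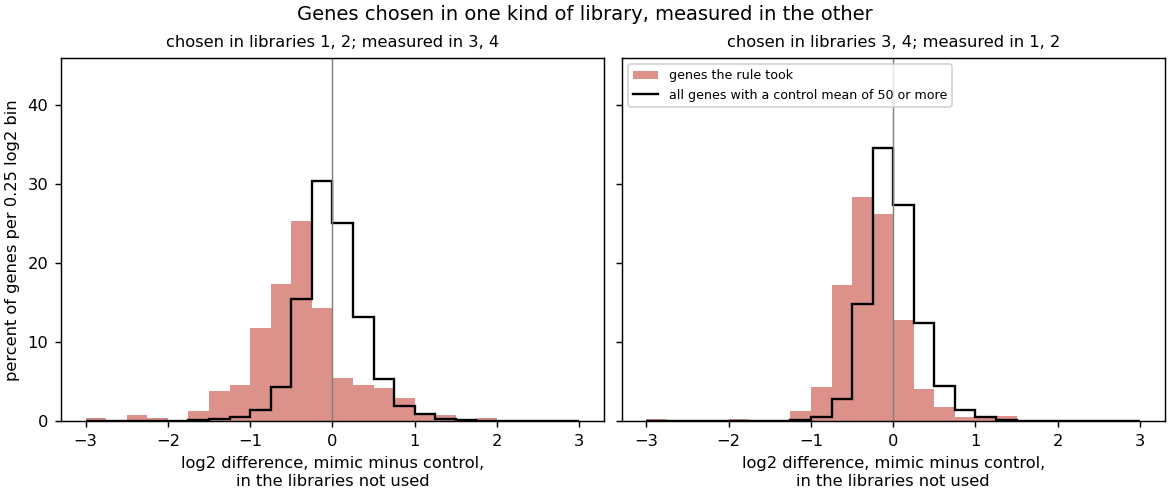
Percent of genes per bin of 0.25 log2 units, by the log2 difference of mimic minus control in the libraries not used for the choice, with values beyond 3 put in the last bin. Red bars are the genes the rule took (236 on the left panel, 591 on the right) and the black line is all genes at that level (11687 and 11837); the red bars lie to the left of the line, with medians of -0.39 and -0.27 against -0.02.

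The members of high level, 16 in number, were more variable within treatment than all genes of that level. The median coefficient of variation of the members with a control mean of 1000 or more was 15.8% between mimic libraries and 12.9% between control libraries, against 5.31% and 7.09% for all genes at that level. At 100 to 1000 normalized counts it was 15.2% between mimic libraries and 12.5% between control libraries, against 9.34% and 11.3% for all genes at that level. At 50 to 100 normalized counts it was 17.1% between mimic libraries and 19.3% between control libraries, against 18.8% and 21.985% for all genes at that level. In that lowest class the members were not more variable than all genes. The choice used these same values, so the comparison is a description and carries no test. Levels were not matched within the classes. At 1000 or more, all genes ran up to 177908 normalized counts and the members up to 6303. The authors' counting can split a read between similar transcripts, and values then need not be whole. Values that were whole multiples of 1 read in all libraries, within a tolerance of 0.001 reads, were found in 61 members (45.9%) and in 47.7% of the 11774 genes. In 65 members (48.9%) no library gave a whole multiple, against 47.7% of the 11774 genes. The median log2 fold change was -0.71 in both classes of members.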

How the data were processed

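RNA of 7 chick limb bud libraries was measured. For each library the authors deposited 1 signal value for each of 17190 Ensembl genes, which they call normalized counts. FastQC, Trim Galore, kallisto and sleuth and the build GRCg6a are named in the submitters' processing notes; their versions, the annotation release and the scaling factors were not given in the sources used here. In each library 52.3% to 53.2% of values above 0 were whole multiples of 1 step within 0.001, taken as 1 read; these shares were too low to restore whole reads, so count models were left out. No pair of libraries held identical values (0 pairs).

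Tests used limma 3.58.1 under R 4.3.3, with a trend, for genes that reached 5 or more in 3 libraries or more, on log2(normalized count + 0.5), two-sided, with Benjamini-Hochberg adjustment over all genes; the scripts were tested on simulated data. The genes, bounds, kinds of library and rules were chosen with earlier results of these data known. The members described were to be named by symbol. The RefSeq table of 25635 genes held no Ensembl identifiers, so 0 could match, which does not show that the genes are absent from it. Genes were therefore taken by rank. These were the 20 largest falls (10 in full), the 5 highest control means and the 5 largest differences between kinds. The 3 neighbors of each bound on either side were added, and the identifiers of the 2 largest falls were printed. The 6 widest gaps and rank 13 were chosen after their values were seen. Gene lists, cell markers, seed sites and sequences were not used here.

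Libraries of equal number deviated together from their group means across genes (correlations 0.17, 0.16 and 0.41, each over 0.1), so the replicate number was also fitted as a block; no source says what it stands for. Libraries of the same kind with other numbers did so as well (0.24, 0.36 and 0.33), while libraries of different kinds did not (-0.43 to -0.19). Since deviations cancel out within each group, these negative values follow in part from the positive ones. The positive values followed the kind of library and not the number alone. Alternatives were other pseudocounts, filters, scalings and bounds, no trend, and each library left out.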

Additional observations from a re-analysis of the deposited data

Results flagged for a closer look

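Among the members described by rank, 7 had 1 control mimic library far from the others, with a gap to its nearest neighbor, as a share of the range of the 4 control libraries, above Dixon's 95% critical value. In 6 of them the library was control 3, above the rest, with a gap of 0.903 of the range for the gene of rank 1 by fall, 0.870 for rank 4, 0.830 for rank 9, 0.894 for rank 19, 0.878 for rank 28 and 0.851 for rank 42. In the gene of rank 8 it was control 4, below the rest, with 0.844. Chance alone flags about 1 in 20 groups of this size that were not picked by their values. The members were picked by theirs, and a high control value adds to the fall. Their shares are therefore a description and are not judged against chance. Over all 133 falling genes 20 (15.0%) had such a library, against 6.57% of the 11774 genes with a control mean of 50 or more. Control 3 was that library in 14 of the 20 (10.5% of the members, against 3.66% of the 11774 genes). Control 3 also had the fewest estimated reads (14879929), and the part of depth was not tested.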

How the results depend on the processing

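The median log2 fold change of the genes the rule took stayed between -0.75 and -0.68 under all alternatives run, which were pseudocounts of 0.1 and 5, minimum means of 20 and 100, 2 other scalings, the ratio of arithmetic means, overlap allowed and each library left out. Each alternative chose its genes by the same bound on the fall, so a median beyond that bound was fixed in advance. Over the same 133 genes the median ran from -0.75 without control 1 to -0.66 without control 3. With overlap allowed the rule took 323 genes, and with 1 library left out 143 to 259, which follows in part from fewer libraries to overlap. The median fall in libraries 3 and 4 was -0.74 without control 3, an alternative added after seeing the data, as was a covariate for the kind of library. With that covariate 916 genes were lower on the mimic at an adjusted p under 0.05 in limma, against 826 in the main fit. Among them were 79 members, against 72, and the median over the 133 genes was -0.70. With the replicate block, where control 4 added nothing to the estimated fall, the median over the 133 genes was -0.74. The genes lower on the mimic then numbered 365, with 44 members. Without the trend they numbered 465, and with 1 library left out 264 to 773, with 34 to 59 members. The interaction passed in 3 genes without a filter and in 0 without the trend (smallest adjusted p 0.0897, and 528 genes at an unadjusted p under 0.05 in limma), and in 3 to 7 with 1 library left out. It could not be fitted without mimic 3. Genes that differed between kinds numbered 204 to 338 with 1 library left out. At an adjusted p under 0.05 no member passed either of the last 2 tests under any alternative run (0 in each), which the lack of overlap between the treatments favors. The share lower in libraries not used for the choice was 77.9% to 80.5% and 78.3% to 78.8% with another pseudocount or scaling. Beyond fewer libraries, the cause of these shifts was not tested. Low levels limit the values, since at 50 to 100 normalized counts control libraries varied by 21.985% at the median.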

Other observations

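Genes left out by the rule held the larger pooled falls. Among the 3 mimic libraries only mimic 3 was of the kind numbered 3 and 4. Among the 4 control libraries, control 3 and control 4 were. A gene higher in that kind can thus show a pooled fall, and overlap, with no effect of the mimic. How many of these falls arose so was not tested. Of the 190 genes with a control mean of 50 or more that fell 1.5-fold or more but overlapped between the groups, 63 fell to a fold of 0.5 or less, against 14 of the 133 members, and the lowest log2 fold change was -4.98. In 108 of the 190 (56.8%) control 3 lay 1.5-fold or more above the log2 mean of the other control libraries. This held in 22 of the 133 members (16.5%) and in 6.51% of the 11774 genes. A high control 3 adds to the pooled fall, so these shares are a description. The highest mimic library was mimic 3 in 101 of the 190, mimic 1 in 51 and mimic 2 in 38. Shares over all 11774 genes were not taken for these counts, so nothing is read from them. Another 112 genes met the conditions on fall and overlap at a control mean under 50.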
